A study of Saccharomyces cerevisiae with 12 samples.

Results

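The nuclear genome of budding yeast holds 275 transfer RNA (tRNA) genes in the RefSeq gene table of assembly R64, out of 6431 nuclear genes in that table. The peaks of Scc2 described here are those that overlapped one of these 275 genes, or the 250 bp on either side of it, by at least 1 bp. They numbered 270, 264 and 267 of the 2115, 2111 and 1502 peaks in the 3 lists without auxin. In the 3 lists with auxin they numbered 259, 268 and 270 of 964, 1324 and 1569 peaks. The members were chosen by position alone, so peak height, width and significance played no part in the choice. Coordinates are on sacCer3, which has the sequence of R64.

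Transfer RNA genes are short genes transcribed by RNA polymerase III. The factor TFIIIC binds promoter elements inside the transcribed sequence and brings in TFIIIB just upstream of it, so the promoter lies within and next to the gene. Scc2 acts with Scc4 to load the cohesin ring onto chromosomes, and tRNA genes are known sites of Scc2-Scc4, of condensin and of tethering in the yeast nucleus.

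Chromatin immunoprecipitation of Scc2 and sequencing used W303 cells of genotype MATa ura3-1::ADH1-OsTIR1 MED14-AID*-6FLAG SCC2-13MYC and an antibody against the Myc tag. All 6 immunoprecipitates share this genotype. Med14, the scaffold subunit of the RNA polymerase II coactivator Mediator, carries a degron that the plant F-box protein OsTIR1, expressed from the ADH1 promoter, recognises in the presence of auxin, and the study asked how Scc2 binding differs after Med14 degradation. Of the 6 cultures, 3 received 1 mM auxin and 3 are labelled as untreated. By the protocol, cells arrested in alpha-factor were kept there for a further 1.5 hours and released into nocodazole for 2 hours. Fission yeast with Myc-tagged Mis4 was then added at a ratio of 1 to 4, and formaldehyde was applied for 30 minutes. Every sample carries the same protocol text, auxin included, so the grouping rests on the sample titles and treatment labels. Cells without tag or degron were not analysed here, and effects of auxin itself and of Med14 loss cannot be told apart. The level of Med14 and the stage of arrest cannot be read from peak lists. The table used here gives no sequence, so none is printed.

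Nearly every nuclear tRNA gene had an Scc2 peak in cultures with and without auxin. Without auxin 272, 270 and 273 of the 275 genes had one, and with auxin 264, 273 and 273. The groups overlapped, and the mean share differed by -0.606 percentage points (98.8 ± 0.555% against 98.2 ± 1.89%, SD, n = 3 each; exact two-sided permutation p = 1). A peak was present in all 6 lists at 263 genes, or 95.6% of them. Over all nuclear genes, taken with the same margin of 250 bp, 13.8% had a peak in all 6 lists, and over coding genes at least 1000 bp from a tRNA gene 5.97% did. Of the other 12 tRNA genes, 8 had a peak in 5 lists, 1 in 4 lists and 1 in 3 lists, and 2 had none in any list.

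The 2 genes without a peak in any list are neighbours on chromosome III, YNCC0008W (149920 to 149991) and YNCC0009C (151284 to 151356), in the interval between SRD1 and MAK32. Their nearest peaks lay 4578 to 8396 bp away. The gene table is of the S288C reference, whereas the cultures were W303, and whether W303 carries both genes was not tested. Most of the remaining absences fell in the first list with auxin, the shortest of the 6, which lacked 11 tRNA genes against 2 in each of the other lists with auxin. Besides the pair on chromosome III these were YNCC0001C, YNCD0023C, YNCE0023W, YNCE0027C, YNCG0003C, YNCH0001W, YNCH0002C, YNCH0004C and YNCP0019W. YNCH0002C and YNCH0004C, on chromosome VIII beside YAP3 and SPO13, were also among the genes missing from lists without auxin. YNCH0002C had a peak only in the third list without auxin, 215 bp wide, and in the second and the third with auxin, 278 and 250 bp wide. YNCH0004C lacked one also in the second list without auxin, and had percentiles of 49.9 and 42.5 by significance in the 2 others.

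YNCN0008C on chromosome XIV (519099 to 519169) was the only tRNA gene that lacked a peak without auxin and had one in every list with auxin. It lies 253 bp from POR1, the gene of the mitochondrial porin. In the first and the third lists without auxin its peak was 1350 and 1356 bp wide, covered all 852 bp of POR1 and had its summit 1005 and 1031 bp from the centre of the tRNA gene. In the second, the nearest peak ended 272 bp away, just outside the margin. With auxin the widths were 679, 215 and 1195 bp, but not of the same region. The 679 bp peak lay on the side away from POR1, with a summit offset of -527 bp. It covered 598 bp each of the overlapping genes YNL054W-A and YNL054W-B. Of POR1 the peaks with auxin covered 0, 0 and 817 bp. The summits of the second and the third lists lay 72 and 84 bp from the centre. In the first and the third lists without auxin and the first with auxin the peak reached the margin but not the tRNA gene itself, which occurred at no other tRNA gene in any list.

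Peaks were centred on the tRNA genes, which are 71 to 133 bp long with a median of 73 bp. The summit, the base where the authors' peak caller placed the maximum, lay inside the gene at 251, 250 and 253 genes without auxin and at 228, 252 and 249 with auxin. As shares of the genes with a peak these were 92.5 ± 0.208% and 90.0 ± 3.16% (SD, n = 3 each; exact permutation p = 0.2), with overlapping groups. The median distance of the summit from the gene's centre was 11.8, 11.5 and 13.5 bp without and 17.5, 14.5 and 13.5 bp with auxin (exact permutation p = 0.2). At 4, 4 and 3 genes without and 7, 3 and 4 genes with auxin the summit lay over 100 bp away.

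The summits had little bias towards either end of the gene. Signed along the direction of transcription, the median offset from the centre was 0.5, -2.0 and 0.5 bp without auxin and 3.5, 1.0 and 1.5 bp with auxin, a positive value being on the 3′ side. Every list with auxin was higher than every list without, by 2.33 bp in the mean (exact two-sided permutation p = 0.1, the smallest possible with 3 lists against 3). Adjusted over the 17 comparisons between groups made here, that p was 0.378, as it was for each other of the 17 with a raw p of 0.1 or 0.2. Among the 263 genes with a peak in all 6 lists, 129 had a median offset on the 5′ side and 133 on the 3′ side. At 203 of these genes the summit was inside the gene in all 6 lists, and the offset of a single gene ranged over 31 bp in the median between lists.

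**Figure D1:**
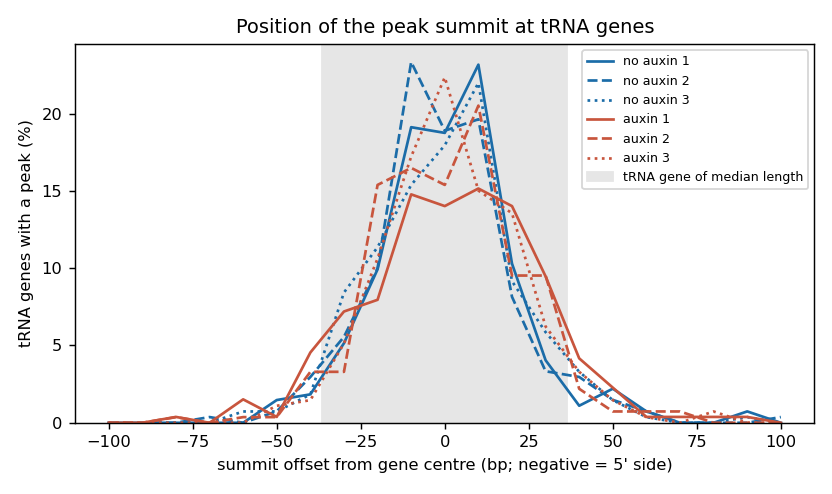
Share of tRNA genes with a peak (%) against the offset of the summit from the gene's centre (bp, negative on the 5′ side), one line for each of the 3 lists without auxin (blue) and the 3 with auxin (red). The grey band marks a gene of the median length, 73 bp, and all 6 lines peak inside it.

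The summit followed the centre of the gene and not either end. For the 192 genes of at most 74 bp it lay a median of 33 to 40 bp from the 5′ end over the 6 lists, and for the 61 genes of over 84 bp it lay 50 to 57 bp from it. Measured from the 3′ end, it lay 31 to 38 bp inside the shorter genes and 47 to 50 bp inside the longer ones. From the centre, both classes had medians between -2.5 and 4.5 bp. The longer class also ranked higher in 6 of 6 lists, with a median percentile of 76.1 to 93.9 against 60.8 to 89.0 for the shorter. Peaks extended beyond both ends. Upstream they extended 138.5, 136.5 and 133 bp in the median without auxin and 118, 137 and 148 bp with auxin. Downstream they extended 159.5, 156 and 145 bp without and 123, 159 and 196 bp with auxin. The downstream reach was longer in each of the 6 lists, and neither reach differed between groups beyond the spread of the lists (exact permutation p = 0.9 upstream and 0.8 downstream).

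The width of peaks at tRNA genes overlapped between the groups of lists, whereas that of other nuclear peaks was lower in every list with auxin. The median width at tRNA genes was 391.5, 398.5 and 382 bp without auxin and 334, 389 and 435 bp with auxin. The lists with auxin lay on both sides of those without, and the difference was -4.67 bp (391 ± 8.28 against 386 ± 50.6 bp, SD, n = 3 each; exact permutation p = 0.8). Nuclear peaks elsewhere had medians of 424, 438.5 and 478 bp without auxin and 372, 378 and 393 bp with auxin. Those groups did not overlap (447 ± 27.9 against 381 ± 10.8 bp, SD, n = 3 each; exact permutation p = 0.1).

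The lists differ in length, so the same widths were taken among the 964 peaks of each list with the highest −log10 p, 964 being the length of the shortest list. The authors' caller gave this significance and a fold enrichment for every peak, and both are used here only to order or describe peaks within a list. At tRNA genes the medians were then 392, 398.5 and 382 bp without and 334, 389 and 435 bp with auxin, almost as before. Other nuclear peaks had medians of 848, 881 and 776 bp without and 372, 461.5 and 534 bp with auxin. The second set of groups was far apart (835 ± 53.7 against 456 ± 81.1 bp, SD, n = 3 each; exact permutation p = 0.1). The cut removed no peak from the first list with auxin, where the median of other peaks stayed at 372 bp. It removed most from the first 2 lists without auxin, where that median had been 424 and 438.5 bp. The lists were thus cut to unlike degrees, and how much of the difference the cut itself made was not tested. Among these 964 peaks the tRNA gene peaks were narrower than other peaks of the same list. The log2 ratios of median width were -1.11, -1.14 and -1.02 without auxin and -0.16, -0.25 and -0.30 with auxin. The difference between groups in this ratio was 0.86 (exact permutation p = 0.1), against 0.20 with the whole lists (exact permutation p = 0.3). With whole lists the ratios were -0.12, -0.14 and -0.32 without and -0.16, 0.04 and 0.15 with auxin. The tRNA gene peaks were then wider in 2 lists, and the mean over lists did not differ from 0 (exact sign-flip p = 0.281).

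**Figure D2:**
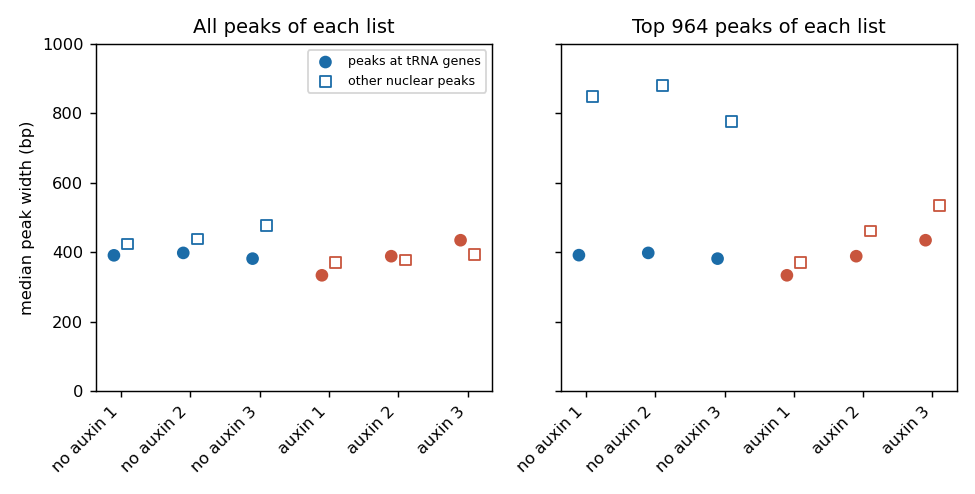
Median width (bp) of peaks at tRNA genes (filled circles) and of other nuclear peaks (open squares) in each of the 3 lists without auxin (blue) and the 3 with auxin (red), over whole lists (left) and over the 964 peaks of each list with the highest −log10 p (right). On the right the circles lie between 334 and 435 bp in all lists, and the squares fall from 776 to 881 bp without auxin to 372 to 534 bp with auxin.

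Peaks at tRNA genes made up more of the covered length of the lists with auxin. Their share of the covered bases was 8.45, 8.16 and 10.3% without auxin and 14.9, 15.2 and 13.9% with auxin. The groups did not overlap, and the means were 8.98 ± 1.18% and 14.6 ± 0.677% (SD, n = 3 each; exact permutation p = 0.1). As a share of the number of peaks they were 12.8, 12.5 and 17.8% without and 26.9, 20.2 and 17.2% with auxin, with overlapping groups (exact permutation p = 0.2). With 964 peaks in every list the shares of peaks came together, at 27.7, 27.4 and 27.7% without and 26.9, 27.7 and 27.9% with auxin. The share of covered length stayed apart, at 12.2, 12.2 and 12.6% against 14.9, 17.9 and 17.9% (exact permutation p = 0.1). The part of the unlike cut in this was not tested.

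Within each list the tRNA gene peaks ranked in the upper part by −log10 p. Their median percentile, where 100 is the highest peak of the list, was 90.1, 90.2 and 82.1 without auxin and 66.0, 79.0 and 82.6 with auxin. The best placed of them was ranked 7, 14 and 26 without and 27, 22 and 19 with auxin. Of the 275 highest peaks of each list, 180, 180 and 136 lay at a tRNA gene without auxin and 89, 128 and 132 with auxin. The groups did not overlap (60.1 ± 9.24% against 42.3 ± 8.64%, SD, n = 3 each; exact permutation p = 0.1). Among those 275 peaks, 0, 0 and 24 were mitochondrial without auxin and 12, 23 and 16 with auxin. A rank depends on what else a list holds, so these values describe the order within each list and not an amount of Scc2. The median fold over all peaks was 1.70, 1.67 and 2.54 in the lists without and 3.93, 2.83 and 2.57 in those with auxin, and its part in the ranks was not tested.

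**Figure D3:**
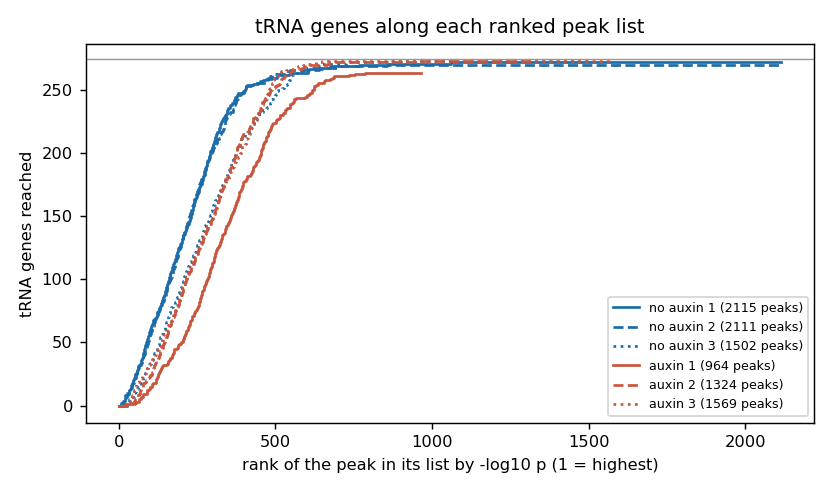
Number of the 275 tRNA genes reached (vertical axis) as each list is read from its highest peak downwards by −log10 p (rank, horizontal axis), for the 3 lists without auxin (blue) and the 3 with auxin (red). The first and second lists without auxin rise first, the first list with auxin rises last, and all flatten at 264 to 273 genes, below the grey line at 275.

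The order of tRNA genes was similar from list to list. Over the 263 to 273 genes shared by a pair of lists, Spearman's rho of the ranks was 0.848 to 0.881 among the 3 pairs without auxin, 0.826 to 0.879 among the 3 pairs with auxin and 0.674 to 0.851 among the 9 pairs across groups. For widths the same ranges were 0.846 to 0.888, 0.681 to 0.763 and 0.585 to 0.766. For summit offsets they were 0.639 to 0.756, 0.517 to 0.604 and 0.519 to 0.628. These are descriptions across genes. Genes are not replicates, and the lists share the genome and its repeats. The copies of a tRNA gene family are nearly identical inside the gene, so reads within the gene may have been placed at the wrong copy, and values of single copies are uncertain for that reason.

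tRNA genes that lie close to another tRNA gene had wider and higher ranking peaks. Most nuclear tRNA genes are alone, the median distance to the next being 11849 bp, and 16 have another within 1000 bp. Their median width was 548, 537.5 and 545 bp without auxin and 451, 554 and 604 bp with auxin. The 259 isolated genes had 385.5, 381.5 and 372 bp without and 328, 378 and 424 bp with auxin. The close genes were wider in 6 of 6 lists, by 162 ± 21.0 bp (mean ± SD over lists; exact sign-flip p = 0.031, the smallest that 6 lists allow, adjusted 0.039 over 5 such tests). They also ranked higher in 6 of 6 lists, by 14.9 ± 6.31 percentile points (exact sign-flip p = 0.031, adjusted 0.039). The rank difference was 8.82, 8.34 and 14.9 points without and 25.7, 16.6 and 15.2 points with auxin (exact permutation p = 0.1 for the difference between groups), and the width difference overlapped between groups (exact permutation p = 1). These tests ask whether the lists agree in sign for this one set of genes.

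The difference was smaller among genes with a peak of their own. In each list 6 peaks held at least 2 tRNA genes, 12 genes in all, and a peak over 2 genes is counted for both. Among peaks with a single tRNA gene 4 close genes were left. They were wider than isolated ones by 57.5, 40.0 and 32.5 bp without and by 59.0, 86.5 and 276.5 bp with auxin, a mean of 92.0 bp. They ranked 6.22 percentile points higher in the mean.

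The closest pairs of genes lie 10 bp apart, and in yeast some such pairs are transcribed into a single precursor. The highest median percentile of all tRNA genes, 97.8, belonged to the pair YNCJ0013C and YNCJ0014C on chromosome X (374424 to 374495 and 374506 to 374577). Their shared peak was 589, 549 and 545 bp wide without auxin and 448, 554 and 609 bp with auxin, with overlapping groups. YNCB0015W and YNCB0016W on chromosome II (405878 to 405949 and 405960 to 406031) reached 97.6, with widths of 448, 474 and 457 bp without and 395, 439 and 514 bp with auxin. The other pairs, YNCD0011W with YNCD0012W on chromosome IV and YNCJ0011W with YNCJ0012W on chromosome X, each had a median percentile of 97.2. In all 6 lists the shared peak of each of these pairs had its summit between the centres of both genes. The offsets from both genes come from the same summit and are not independent. At YNCB0015W the summit was 26.5 to 62.5 bp to the 3′ side of the centre in the 6 lists, and at YNCB0016W 19.5 to 55.5 bp to the 5′ side.

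Among the 263 genes with a peak in all 6 lists, the 3 with the farthest summits each shared their peak with part or all of a neighbour. At YNCG0029C on chromosome VII (700953 to 701048), 196 bp from the tRNA gene YNCG0028W, the offset was 295.5, 269.5 and 20.5 bp without auxin and 284.5, 270.5 and 266.5 bp with auxin, so that the third list without auxin alone placed the summit on it. At YNCG0030C (707108 to 707179), 430 bp from the coding genes YGR109W-A and YGR109W-B, the offset was -398.5, -371.5 and -359.5 bp in the first 2 lists without auxin and the first with auxin, and the summit was within 24.5 bp of the centre in the others. YNCB0005C on chromosome II (197629 to 197699), 61 bp from YNCB0004W, had offsets of 45 to 108 bp.

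Coding genes stood close to most tRNA genes. The median distance to the nearest was 274 bp. The nearest lay on the downstream side of 218 tRNA genes and on the upstream side of 57, with its start codon nearer at 158 and its stop codon at 117. The 125 genes with a coding gene within 250 bp had narrower peaks than the 62 with none within 500 bp. Their median widths were 395.5, 402 and 360 bp without auxin and 325, 370 and 419 bp with auxin. The distant genes had 426.5, 428.5 and 417 bp without and 368, 438.5 and 494 bp with auxin. The 88 genes in between had 376.5, 365 and 374 bp without and 328, 377.5 and 414 bp with auxin, on both sides of the near genes. Their median percentiles were 89.9, 88.7 and 78.8 without and 61.3, 76.2 and 80.6 with auxin. Those of the near genes were 89.0, 89.9 and 81.7 without and 64.9, 78.2 and 82.4 with auxin. Width and rank thus did not rise steadily with distance. Against the distant genes, the near genes were lower in 6 of 6 lists, by 50.2 ± 19.9 bp (SD over lists; exact sign-flip p = 0.031, adjusted 0.039). They also ranked lower in 6 of 6 lists, with differences of -7.44 to -2.65 percentile points (exact sign-flip p = 0.031, adjusted 0.039). With single-gene peaks only, which left 51 distant genes, both differences were smaller in the mean over lists. The width difference was -35.2 bp, against -50.2 bp with all peaks, and the rank difference -3.28 percentile points, against -5.07. With all peaks, both differences overlapped between groups (exact permutation p = 0.2 for each).

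**Figure D4:**
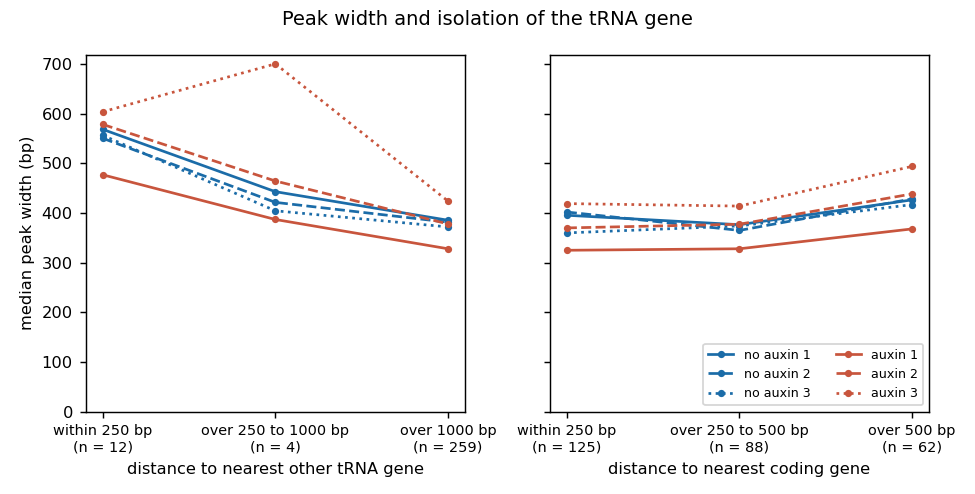
Median peak width (bp) of tRNA genes grouped by the distance to the nearest other tRNA gene (left) and to the nearest coding gene (right), for the 3 lists without auxin (blue) and the 3 with auxin (red), with the number of genes in each class. Every line is higher at the 12 genes within 250 bp of another tRNA gene than at the 259 with none within 1000 bp, and every line is higher at the 62 genes without a coding gene within 500 bp than at the 125 genes with one within 250 bp.

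A minority of tRNA gene peaks reached into a coding sequence. The share was 21.3, 21.1 and 19.0% without auxin and 11.7, 19.8 and 27.1% with auxin, and the lists with auxin lay on both sides of the others (exact permutation p = 0.8). The peak reached the nearest coding gene at 56, 56 and 49 tRNA genes without and at 29, 53 and 72 with auxin. Where it did, it covered a median of 118.5, 123 and 92 bp of that gene without and 96, 93 and 120.5 bp with auxin. A separate peak on the nearest coding gene was more often called without auxin, at 56, 52 and 35 tRNA genes against 17, 24 and 29. Those groups did not overlap. The first 2 lists without auxin were also the longest, and the part of list length in this count was not tested.

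Few tRNA genes had widths that separated the groups. Of the 263 with a peak in all 6 lists, 13 were narrower in every list with auxin than in every list without, and 20 were wider. These are 4.94 and 7.60%, where 18.8 and 10.0% of all nuclear genes with a peak in all 6 lists separated in the same directions. Those nuclear genes, 887 in number, include the tRNA genes. Among coding genes at least 1000 bp from a tRNA gene the shares were 30.0 and 15.3%. The tRNA counts rested on single lists. With a list left out fewer assignments are possible, so exchangeable lists would separate a larger share of genes. Without the first list with auxin 14 were narrower and 91 wider, the latter 33.7% of the 270 genes then tested, where 26.7% of all nuclear genes were narrower and 23.9% wider. Without the third list with auxin 59 were narrower, or 22.4%, and 23 wider, where 30.8 and 11.7% of all nuclear genes were. Without the third list lacking auxin the counts were 24 and 32, or 9.13 and 12.2%, where 23.8 and 19.1% of all nuclear genes separated. Without any other list they were 15 to 18 and 23 to 26, or 5.68 to 6.84% and 8.71 to 9.89%. Of all nuclear genes 20.0 to 20.9% were then narrower and 11.5 to 11.8% wider. Among coding genes at least 1000 bp from a tRNA gene, 41.8% were narrower and 16.9% wider without the first list with auxin. Their shares were 38.8 and 18.2% without the third list with auxin, and 34.7 and 26.1% without the third lacking auxin. Without any other list they were 30.7 to 31.8% and 15.9 to 17.9%.

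At 4 of the 5 genes with the largest decreases in width, the peak without auxin ran into a neighbouring coding gene. YNCE0005W on chromosome V (86604 to 86685), 5 bp from MTC7, had widths of 1801, 1854 and 1809 bp without auxin and 503, 509 and 1171 bp with auxin, and the groups did not overlap. Without auxin its peak covered all 474 bp of HYP2, which encodes a translation factor, and 398 to 459 bp of UTR5 beyond it. With auxin it covered 0, 0 and 235 bp of HYP2 and none of UTR5. The summit offset was -577.5, -589.5 and -56.5 bp without and -57.5, -79.5 and -34.5 bp with auxin, so that the first 2 lists placed it far upstream of the tRNA gene.

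YNCE0010W on chromosome V (138666 to 138737), 180 bp from GCN4, had widths of 1264, 1250 and 1237 bp without and 363, 772 and 392 bp with auxin. GCN4 encodes the activator of amino acid biosynthesis genes. Its 846 bp lay within the peak for 846, 843 and 830 bp without and for 0, 370 and 0 bp with auxin, while the summit stayed 11.5 to 23.5 bp from the centre of the tRNA gene in all 6 lists. SUF9, a frameshift suppressor gene for a proline tRNA on chromosome VI (101376 to 101478), went from 974, 850 and 765 bp to 273, 670 and 389 bp. Its peak covered 553, 422 and 366 bp of LPD1, the dihydrolipoamide dehydrogenase gene, without and 0, 219 and 13 bp with auxin. These genes were picked among those where the lists with auxin were all lower, and such a separation can arise by chance.

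The 2 other decreases named by size were smaller or less even. YNCH0006C on chromosome VIII (146242 to 146314) had 833, 2195 and 803 bp without and 570, 504 and 737 bp with auxin, and the second list decides the size of that difference. It covered 268, 1676 and 200 bp of YHR020W without and 0, 0 and 128 bp with auxin. YNCB0018W on chromosome II (645167 to 645238) had 531, 602 and 492 bp without and 241, 346 and 320 bp with auxin. TRN1, a proline tRNA gene on chromosome I (139152 to 139254) beside the Hsp70 gene SSA1, had the widest peaks in the median, at 2026, 2087 and 2429 bp without and 386, 1437 and 2156 bp with auxin. Of the 1929 bp of SSA1, its peak covered 1523, 1589 and 1916 bp without and 0, 920 and 1570 bp with auxin, and the groups overlapped in width.

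**Figure D5:**
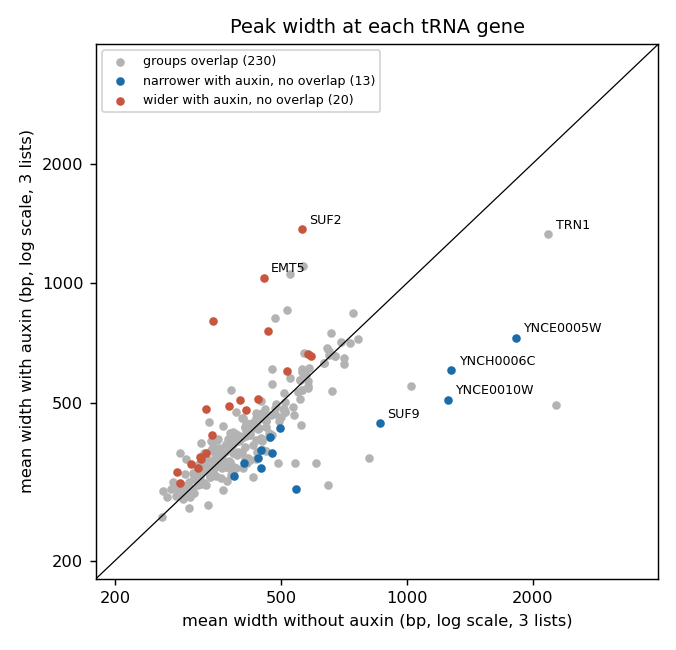
Mean peak width (bp, log scale) at each of 263 tRNA genes in the 3 lists with auxin against the 3 without, with the line of equal width. Blue points are the 13 genes narrower in every list with auxin, red points the 20 wider in every list with auxin and grey points the 230 whose groups overlapped; SUF2 lies farthest above the line among the red points and YNCE0005W, YNCE0010W, SUF9 and YNCH0006C are the blue points farthest below it.

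The largest increases lay at SUF2, EMT5, YNCK0019W, SUF10 and YNCP0018C. SUF2 is a frameshift suppressor gene for a proline tRNA on chromosome III (123577 to 123648), 573 bp from YCR006C. Its peak was 575, 578 and 526 bp wide without auxin and 1263, 1353 and 1479 bp with auxin, and its summit lay within 24.5 bp of the gene's centre in all 6 lists. With auxin it covered 426, 474 and 474 of the 474 bp of YCR006C and without auxin 0 bp. It was among the highest in every list, with percentiles of 96.5 to 98.8.

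EMT5, a gene for the elongator methionine tRNA on chromosome X (391043 to 391115), had 474, 405 and 483 bp without and 512, 1262 and 1322 bp with auxin. The 336 bp of its neighbour YJL028W were covered for 71, 0 and 63 bp without and 162, 336 and 336 bp with auxin. YNCK0019W on chromosome XI (517988 to 518060) had 345, 334 and 350 bp without and 398, 483 and 1522 bp with auxin. The last value, with a summit 975 bp downstream, carries most of that difference. SUF10, another proline tRNA suppressor gene on chromosome XIV (631846 to 631917), had 487, 448 and 460 bp without and 496, 850 and 931 bp with auxin. YNCP0018C on chromosome XVI (775765 to 775836) had 349, 337 and 306 bp without and 426, 536 and 481 bp with auxin. These genes were picked among those where every list with auxin was higher, and such a separation can arise by chance. At EMT5 and SUF10 the first list with auxin was close to those without.

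Among genes with a peak in all 6 lists, the narrowest in the median belonged to YNCH0015W on chromosome VIII (466990 to 467061), with 259, 253 and 264 bp without auxin and 209, 267 and 298 bp with auxin, and to YNCP0004C and YNCB0007W, with 254 to 317 and 275 to 325 bp over the 6 lists. The lowest median percentiles among the same genes were 59.4 at YNCG0032W, 62.5 at YNCL0032C, 64.5 at YNCG0030C, 65.1 at YNCH0015W and 65.8 at YNCK0014W. Even these lay above the middle of the lists in the median. Low rank and narrow width did not always go together, since YNCG0032W had widths of 498 to 636 bp.

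The tRNA gene beside the silent mating-type locus HMR, YNCC0014W on chromosome III (295484 to 295556), is known as a boundary that limits the spread of silencing towards GIT1. It lies 1162 bp from HMRA1 and 1492 bp from GIT1. Its peak was 586, 628 and 555 bp wide without auxin and 632, 654 and 680 bp with auxin, and every list with auxin was above every list without (590 ± 36.6 against 655 ± 24.0 bp, SD, n = 3 each). Such a separation at a single gene can arise by chance. The percentile of YNCC0014W was 95.6, 97.1 and 89.4 without and 75.1, 85.5 and 89.1 with auxin. SUP4, a tyrosine tRNA gene long used as a nonsense suppressor, on chromosome X (542956 to 543044), had widths of 304, 339 and 335 bp without and 333, 342 and 365 bp with auxin. Its summit lay 17 to 33 bp to the 3′ side of the centre in all 6 lists, and its groups overlapped in width.

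The genes farthest from any annotated neighbour had peaks too. YNCN0020C on chromosome XIV, 1827 bp from the nearest gene, had widths of 590, 374 and 607 bp without auxin and 662, 668 and 396 bp with auxin. YNCG0011W on chromosome VII, 1701 bp away, had 582, 549 and 609 bp without and 536, 518 and 583 bp with auxin. YNCL0035C on chromosome XII, 1819 bp away, had narrower peaks of 329, 324 and 350 bp without and 321, 343 and 351 bp with auxin. In none of these did the groups separate.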

How the data were processed

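For the 6 immunoprecipitates the authors deposited narrow peaks, in a separate list each. Per the submitters' processing notes, Bowtie2 2.4.2, MACS2 2.1.1.20160309 and sacCer3 were used. What each tool did, its threshold and its control are not stated in the sources at hand. The deposited columns are start, end and summit in base pairs, a fold enrichment (ratio) and −log10 p and −log10 q from the authors' caller, and a display score that was not used. The total chromatin samples have no list. Depth is unknown, calibration enters no value, and no peak means that none was called, and not that Scc2 was missing. Peaks with identical ends were found in no pair of lists.

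Genes came from the RefSeq table of R64, with strand read from the systematic name. For each gene the peak overlapping the gene and 250 bp on either side whose summit was nearest its centre was used. Percentiles are of −log10 p within a list. Means over 3 lists were compared with exact two-sided permutation tests (20 assignments), and contrasts between classes of genes by exact sign-flip tests over the 6 lists (p threshold 0.05, Benjamini-Hochberg adjustment over 17 and 5 tests). Values for other nuclear peaks and for lists of equal length are unadjusted. Analyses used Python 3.11.15, numpy 2.4.6, pandas 2.3.3 and scipy 1.17.1, and the tests were checked on simulated data. The lists were treated as unpaired, and whether replicate numbers pair them is not stated in the sources at hand.

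Named genes are those without a peak in some list, the 5 highest and 5 lowest by median percentile, the 3 widest and 3 narrowest, the 5 largest width differences in each direction among genes whose groups did not overlap, the 3 with summits farthest from the centre, the 3 most isolated, the closest pairs, the gene nearest GIT1 and SUP4. Members, lists and tests were chosen with earlier results of these data known. Coverage of neighbouring coding genes, and the alternative with nuclear peaks only, were added after seeing the data. Classes by amino acid or transposon, and a search for promoter motifs, were not made, since the tables used here hold no amino acids or sequences.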

Additional observations from a re-analysis of the deposited data

Results flagged for a closer look

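The 24 mitochondrial tRNA genes lie outside the comparisons above, and peaks were called at most of them. Without auxin 21, 20 and 24 of the 24 had a peak, and with auxin 24, 24 and 24. Their median percentile by −log10 p was 77.9, 74.3 and 85.6 without auxin and 95.8, 90.9 and 88.0 with auxin. Every list with auxin was above every list without. No list from untagged cells was used here to set beside these values.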

How the results depend on the processing

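No result past its threshold changed sign under any alternative run. Apart from those that leave out a list, 168 of 180 recomputed results stayed on their side of the threshold or within the spread of the lists. For the width differences of single named genes 130 of 130 did, those without a list included. All of these genes but TRN1 had groups that did not overlap, so leaving out a list could not reverse their sign. The spread also includes outlying lists. At YNCH0006C the difference was -214 bp without the second list lacking auxin, against -673 bp, within an SD of 569 bp. With lists of 964 peaks, the auxin minus no auxin difference in the share of peaks at tRNA genes was -0.104, against 7.09 with whole lists, and in the share of covered length 4.55 percentage points. The log2 width ratio to other peaks differed by 0.86 between groups, and its mean over lists was -0.66 (exact sign-flip p = 0.031, against 0.281 with whole lists). Both values also reflect the cut, which took most from the longest lists and nothing from the shortest. The rank contrast for near coding genes then differed by -0.787 percentile points. With a margin of 500 bp, peaks at tRNA genes differed by -8 in number and by 3.53 points in share of length, and with nuclear peaks only the latter was 6.67 points. With single-gene peaks only, the contrasts for close tRNA genes differed between groups by 97.3 bp in width and 0.472 points in rank. With the replicate block, which set lists of the same number against each other, 24 of 263 genes were narrower and 41 wider. This is another criterion than the lack of overlap between groups, which gave 13 and 20 of the same genes. The counts are therefore not comparable and do not show more separated genes. The share of all nuclear genes under the block was not tested. Whether the numbers pair the lists is not stated. Same-number correlations of width deviations were -0.142, 0.032 and -0.139, and those of unlike numbers ran from -0.119 to 0.197. Correlations this small in so few lists cannot decide it.

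Leaving out each list in turn left 5 lists, whose smallest exact sign-flip p is 0.0625, so the contrasts passed no threshold: 158 to 170 bp and 12.8 to 16.2 points for close tRNA genes, and -54.9 to -45.2 bp and -5.55 to -4.60 points for near coding genes. Counts of separated tRNA genes ran from 14 to 59 narrower (5.19 to 22.4%) and 23 to 91 wider (8.71 to 33.7%). Of all nuclear genes 20.0 to 30.8% were narrower and 11.5 to 23.9% wider. The causes were not tested. Depth is unknown, and the tests between 3 and 3 lists cannot pass 0.05.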

Other observations

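On 4 of the chromosomes, peaks at tRNA genes lay on the same side of the median of all tRNA genes in every list, for width and percentile alike. On chromosomes I, II and III, with 4, 13 and 10 tRNA genes, both the median width and the median percentile were above those of all tRNA genes in 6 of 6 lists. The medians of chromosome III rest on the 8 genes with a peak, or 7 in the first list with auxin. On chromosome I the median width was 547.5, 526 and 541 bp without auxin and 406, 577 and 646 bp with auxin. On chromosome IX, with 10 genes, both were below in 6 of 6 lists, at 343.5, 338.5 and 330.5 bp without and 277.5, 357 and 372 bp with auxin. Widths were also above in 6 of 6 lists on chromosome VII and below on XI, XIII and XV. These are descriptions of small sets of genes and were not tested.

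The median widths of families with named members overlapped. The 4 genes for the initiator tRNA (IMT) had median widths of 295.5 to 366.5 bp over the 6 lists, the 5 EMT genes for the elongator methionine tRNA 325 to 418 bp, and the 8 tyrosine suppressor (SUP) genes 338 to 386 bp. These are medians of few genes, and single members can differ more, EMT5 alone having 405 to 1322 bp. Outside the rule for named genes, YNCE0028C on chromosome V had a peak 5904 bp wide in the third list without auxin and 435 to 516 bp wide in the other 5. It was picked after its values were seen. The 5 other RNA polymerase III genes, SCR1, RPR1, SNR6, SNR52 and RNA170, had a peak at 5, 5 and 5 members without auxin and at 3, 5 and 5 with auxin. Their median widths were 590, 538 and 458 bp without and 645, 542 and 512 bp with auxin, above the tRNA gene median in 6 of 6 lists.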
